A study of Homo sapiens with 12 samples.

Results

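The transcriptome of PANC-1 cells that had lost QKI was compared directly with that of cells that had lost RBFOX2, a pair of splicing factors that were each depleted by siRNA. The members are the 3 libraries of QKI-silenced cells (siQKI) and the 3 libraries of RBFOX2-silenced cells (siRBFOX2), 6 of the 12 libraries in the series, and the genes whose mean over these 6 libraries reached 10 normalized counts, which were 22666 of the 48114 genes listed. The study asked which splicing factors set the splicing programs of the classical and basal-like subtypes of pancreatic ductal adenocarcinoma (PDAC). RNA was sequenced from polyA-selected, paired-end libraries of PANC-1 cells, an established PDAC line that the study uses as basal-like, and of HPAF-II cells, a classical line that is not analysed here. PANC-1 cells were transfected with the siRNAs at 40 nM and collected after 48 h, and the 3 PANC-1 libraries that received a control siRNA (siCtrl) are given only as a reference level. The QKI siRNA was a pool of several siRNAs, whereas the design of the RBFOX2 siRNA is not given in the sources used here, so that a response to the siRNA itself and to loss of its target cannot be told apart. Nothing states that the libraries of a group came from separate cultures, and the p-values then measure only the spread between these samples, which may be technical.

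QKI belongs to the STAR family of RNA-binding proteins and contacts RNA through its KH domain, preferring the letters ACUAAC. RBFOX2 carries an RNA recognition motif that prefers UGCAUG. Both bind introns next to cassette exons and can favor or repress inclusion depending on the side on which they bind, and both are known to shape the exon choices that separate epithelial from mesenchymal cells. Both also contact 3′UTRs, where QKI in particular is known to affect mRNA stability, and a splicing change can lower an mRNA by introducing a premature stop codon.

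The 6 knockdown libraries were of similar size, with totals of 292248837 to 376192091 steps, the smallest unit in which the deposited values occur, and the siCtrl libraries held 343178610 to 353936909. A step need not be a sequenced fragment, since 83.5% to 84.8% of the low values were multiples of 3 steps, so the depth in fragments is unknown and precision was taken from the replicates. Pearson's r across genes, which do not count as replicates, was 0.964 to 0.972 between libraries of one knockdown and 0.959 to 0.966 between the knockdowns. Mitochondrial genes held 3.98% to 4.39% of the knockdown libraries and 3.39% to 3.70% of the siCtrl libraries. All 8 epithelial markers of a ductal carcinoma were measured, and their summed level was 870396 to 937079 normalized counts in siQKI, 749053 to 806835 in siRBFOX2 and 898546 to 957248 in siCtrl libraries. KRT8 (log2 difference 0.26, SE 0.044, adjusted p = 0.00108, limma), KRT18 (0.15) and KRT19 (0.27) were higher in siQKI cells and KRT80 (-0.22) was lower, with all 4 calls lost without limma's mean-variance trend (adjusted p 0.0556 to 0.229) and that of KRT18 also without any 1 library other than siRBFOX2 1 (adjusted p 0.0513 to 0.138), and in a bulk sample fewer cells of a type and less RNA per cell cannot be told apart. Of 10 immune markers 4 passed the filter on low values, and their sum was 39033.1 to 39879.5 in siQKI and 43658.2 to 45632.1 in siRBFOX2 libraries, nearly all of it CD68 (-0.17, lost without the trend at an adjusted p of 0.0973), while CD3E and MS4A1 were at 0. The endothelial sum stayed at or below 156 normalized counts with CLDN5 at 0, the erythroid sum ran from 1987 to 2931 with HBB, HBD and ALAS2 at 0, and the fibroblast sum ran from 6388 to 7633 with DCN at 0. Strand was not stated for the counting, and 61.4% of the tested genes share coordinates with another listed gene, so that the values of such genes are uncertain. Among the genes given by library below, this holds for QKI, RBFOX2, PTBP2, PTBP1, G0S2, CNN2, MYLK, TPM4, FOSB, FOS, DUSP6, IFIT3, IFIT1, IRF1, TXNRD1, SLC7A11, HSP90B1, GABARAPL1, ITGB8, COL5A1, MMP1, NRP2, NTN1, ROR1, WWTR1, MCM7, KIF11, SDHA, IGFBPL1, SGPL1, MGP, KLK6, ADAM15 and ADD3. Of the 315 genes selected for naming, not all of which are described here, 205 were chosen by a rule on size and list membership. The other 110, mostly further members of the lists, were selected after their values were seen.

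In the direct comparison 4640 genes were called at an adjusted p under 0.05 (limma), which is 20.5% of those tested. They comprised 2165 genes that were higher in siQKI cells (9.55%) and 2475 that were lower (10.9%). Most of these differences were small, with a median size of 0.34 on the log2 scale, and 964 genes (4.25%) differed by at least 1.5-fold, 474 higher (2.09%) and 490 lower (2.16%). The share of genes called rose with their level, from 0.836% at a mean of 10 to 50 normalized counts to 39.1% at 5000 or more, and most members of the gene lists below are of high level. A count of called members has to be read beside these shares. Below 39.1% lay, among others, the lists of MHC class I genes (36.8% called), p53 targets (36.4%), Notch (37.5%), DNA replication (34.9%) and mitosis (30.2%). The same held for ERBB (33.3%), glycolysis and hypoxia (25.7%) and oxidative phosphorylation genes (19.0%). For 35.0% of the tested genes the 3 siQKI libraries did not overlap the 3 siRBFOX2 libraries. All differences below are siQKI minus siRBFOX2 on the scale of log2(normalized count + 1), so that a positive value means a higher level in siQKI cells, and folds of low genes are understated.

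**Figure D1:**
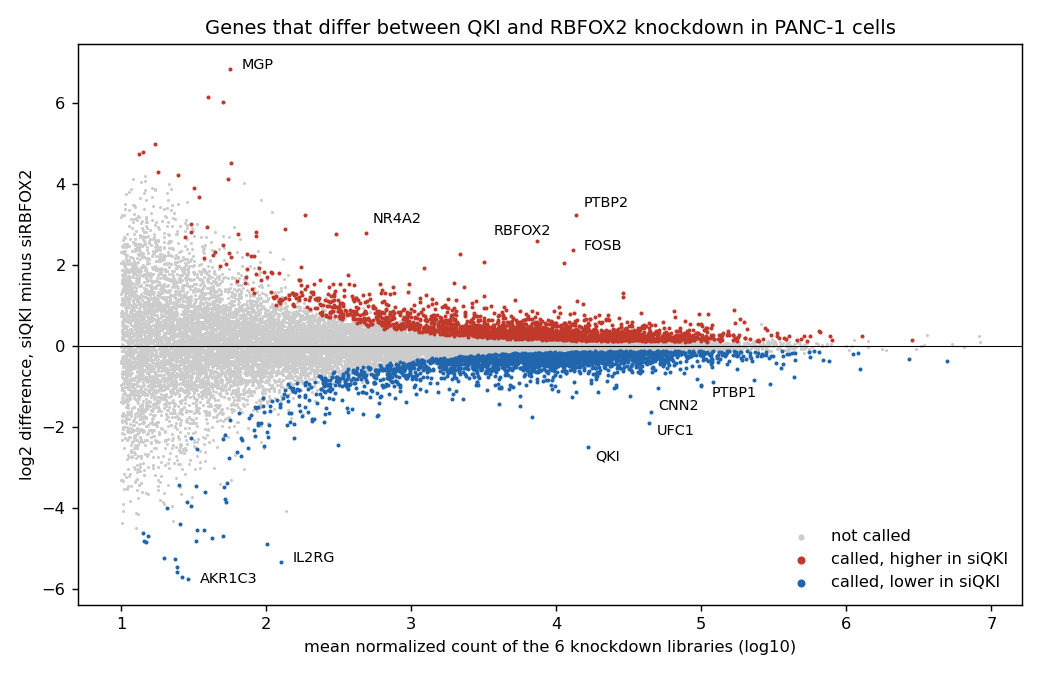
Each point is 1 of the 22666 tested genes, with the mean normalized count of the 6 knockdown libraries on a log10 axis and the log2 difference, siQKI minus siRBFOX2, on the other. Red points are the 2165 genes called higher in siQKI, blue points the 2475 called lower, and gray points were not called. PTBP2, RBFOX2 and FOSB stand at the top and QKI, UFC1 and CNN2 at the bottom among genes of high level.

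Each knockdown was also set against the siCtrl libraries to show which of them had moved a gene. In that fit siQKI differed from siCtrl at 7418 genes (32.7% of those tested, 14.8% higher and 17.9% lower) and siRBFOX2 at 5962 genes (26.3%, 12% higher and 14.4% lower). Both comparisons use the same siCtrl libraries, so no overlap between them is read as a result and their values are given side by side. Among the 4640 genes that differed between the knockdowns, 1843 (8.13% of those tested) had passed against siCtrl in siQKI only, 959 (4.23%) in siRBFOX2 only, and 219 (0.966%) in both with opposite signs. The last count fell to 126 to 139 when any 1 of the siCtrl libraries was left out. A further 1069 genes (4.72%) had moved in the same direction in both but to different levels, and 550 (2.43%) had passed in neither.

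The targeted genes followed the labels. QKI (GSHG0037392, chromosome 6, 163414643 to 163578592, hg38) had 4629.7, 5453 and 5020.2 normalized counts in the siQKI libraries and 26742, 28333 and 28973 in the siRBFOX2 libraries (log2 difference -2.48, SE 0.062, adjusted p = 6.52e-11, limma). RBFOX2 (GSHG0029451, chromosome 22, 35738736 to 36028824) had 12629, 12778 and 12520.0 normalized counts in siQKI and 2403, 2171 and 1712 in siRBFOX2 libraries (log2 difference 2.61, SE 0.099, adjusted p = 7.59e-09, limma). Neither pair of groups overlapped, and the remaining QKI level was 18% of that in siRBFOX2 cells. Loss of one factor also touched the other to a small extent. RBFOX2 was below its siCtrl level of 15355, 15508 and 15424 in siQKI cells (log2 difference from siCtrl -0.29, adjusted p = 0.021, limma), whereas QKI in siRBFOX2 cells, against 25909, 24539 and 26150.4 in siCtrl, did not pass (log2 difference 0.13, adjusted p = 0.106, limma).

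The letters that each factor prefers were searched in the longest 3′UTR of the main genes on the sense strand, and the first match is shown as a 30-base window because it places the motif in the mRNAs whose levels are described here. Sequences run 5′ to 3′ on hg38 with the GENCODE 29 annotation, and capitals mark ACTAAC or TGCATG.
QKI (chr6:163573784-163573813, plus strand): taataccaacctACTAACtctggactttgt
QKI (chr6:163571158-163571187, plus strand): gatgatgcatcaTGCATGaaccttcggtca
RBFOX2 (chr22:35741293-35741322, minus strand): aatcacagtacaTGCATGattctttttcag
PTBP2 (chr1:96814334-96814363, plus strand): ttcaggaactggTGCATGtatttttcaaag
EGR1 (chr5:138468339-138468368, plus strand): aagaacttgattTGCATGgattttggataa
DUSP6 (chr12:89349079-89349108, minus strand): gaattggttaatACTAACagagagatttgc
TXNRD1 (chr12:104348886-104348915, plus strand): aaggtgtcttgtTGCATGgaagggatagtt
AXL (chr19:41261277-41261306, plus strand): cactcagttgtgACTAACtagacaccaaag
The QKI 3′UTR of 7886 bases held 2 ACTAAC and 7 TGCATG matches, and that of RBFOX2, of 5459 bases, held no ACTAAC and 1 TGCATG. PTBP2 had 2 TGCATG and no ACTAAC matches, and FOSB had 1 TGCATG match, which is not shown, and no ACTAAC. The 3′UTRs of PTBP1, UFC1, CNN2, FOS, CCL2 and HMOX1 held neither motif. A match is a description of these letters and not a binding site.

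Other splicing regulators differed as well, and PTBP2 and PTBP1 parted in direction. Of 27 tested splicing regulators, a list that includes the targets, 5 were higher and 7 lower in siQKI cells, and under upper-quartile rescaling 7 were higher and 6 lower, while 3 were higher without siQKI 2 or siRBFOX2 3. PTBP2, the neural paralog that PTBP1 normally represses through a skipped exon and nonsense-mediated decay, had 24889, 25732 and 23432 normalized counts in siQKI, 2735, 2574 and 2565 in siRBFOX2 and 4069, 4153 and 4547 in siCtrl libraries. The siQKI libraries were 9.4 times the siRBFOX2 level on average with no overlap (log2 difference 3.23, SE 0.056, adjusted p = 2.1e-12, limma). Against siCtrl it was higher in siQKI (2.54, adjusted p = 9.7e-13) and lower in siRBFOX2 cells (-0.70, adjusted p = 9.35e-07, both limma). PTBP1 itself had 69710.5, 68151 and 65998 normalized counts in siQKI, 133482, 128296 and 132593 in siRBFOX2 and 147413, 150229 and 149874 in siCtrl libraries, and was lower in siQKI cells (log2 difference -0.95, SE 0.038, adjusted p = 1.2e-08, limma). It was below siCtrl in both knockdowns, at log2 differences of -1.13 in siQKI and -0.18 in siRBFOX2 cells (adjusted p = 1.27e-11 and 0.00123, limma). PTBP2 and PTBP1 are similar in sequence, and how the counting treats reads shared by both is not stated.

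**Figure D2:**
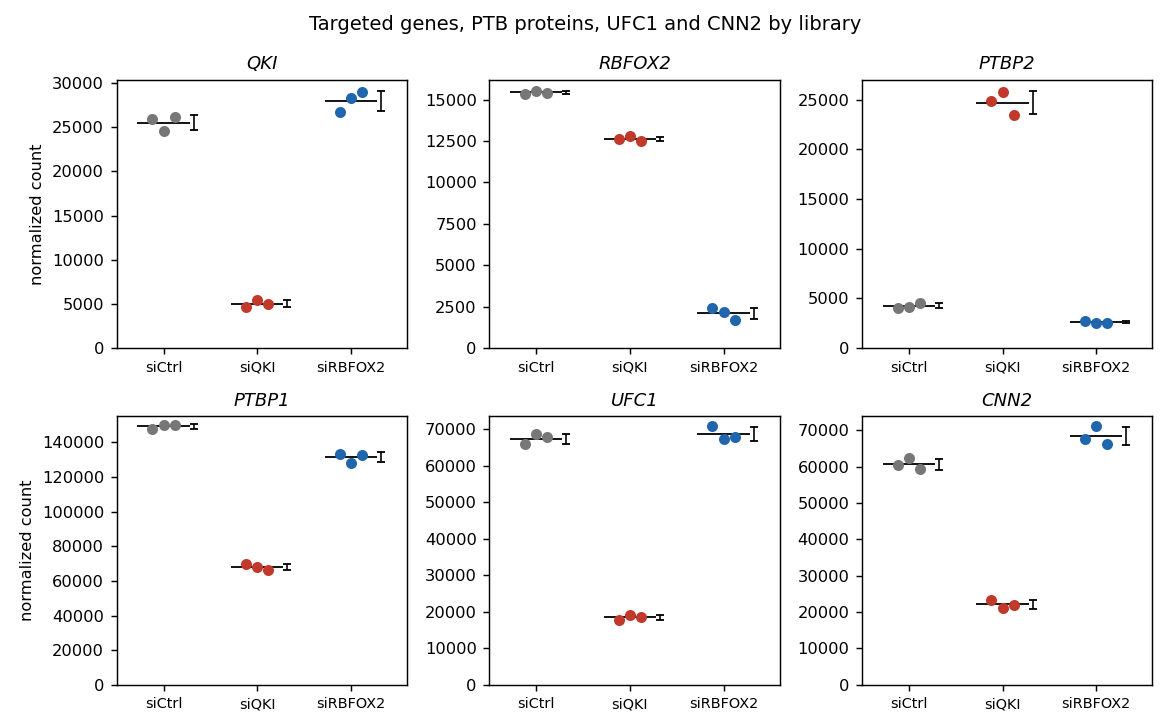
Normalized counts of QKI, RBFOX2, PTBP2, PTBP1, UFC1 and CNN2 in each library of siCtrl, siQKI and siRBFOX2 cells, from an axis that starts at 0. Points are libraries, the horizontal line is the mean of 3 and the bar beside it is the SD. For each of the 6 genes the siQKI points lie apart from the siRBFOX2 points, and PTBP2 is the one with a gain over siCtrl in siQKI cells.

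Further regulators differed less. RBM24, a muscle splicing factor, had 24929.8, 26678 and 24805 normalized counts in siQKI and 35071, 36094 and 35503 in siRBFOX2 libraries with no overlap (log2 difference -0.48, SE 0.043, adjusted p = 6.65e-06, limma). RBMS2 (log2 difference -0.53, SE 0.085, adjusted p = 0.000628, limma) was also lower in siQKI cells, and TIA1, which promotes the use of weak splice sites, was higher (log2 difference 0.33, SE 0.049, adjusted p = 0.000365, limma). RBMS1 was lower at -0.30 and MBNL1 at -0.15, and ESRP2, an epithelial splicing regulator, was higher at 0.20. The MBNL1 call was lost on leaving out siQKI 1 or 2 or siRBFOX2 2 or 3 (adjusted p 0.0924 to 0.136) and after upper-quartile rescaling (adjusted p = 0.105), the ESRP2 call on leaving out siQKI 1 or 2 or siRBFOX2 2 or 3 (0.0504 to 0.135), and all 3 calls without limma's mean-variance trend. CELF2 was listed at 0 in 2 of the siQKI libraries and had 85.2, 98.8 and 10.2 normalized counts in siRBFOX2 libraries, and its call was lost without siQKI 2 or 3 or siRBFOX2 1 or 2 (adjusted p 0.0632 to 0.159). The SR proteins and hnRNPs, the general exon enhancers and silencers, had 21 of 25 tested members not called. SRSF4 (0.22) and SRSF5 (0.19) were higher and HNRNPA1 (-0.21) and HNRNPU (-0.15) lower, and none of these 4 calls held without the trend (adjusted p 0.0683 to 0.11), while 4 members were lower without siRBFOX2 1.

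A set of genes outside the gene lists, named here after their values were seen, was chosen for large differences at high level, and UFC1, G0S2, L3HYPDH and ECHS1 had moved from siCtrl in siQKI cells only. UFC1 (GSHG0001286, chromosome 1, 161153752 to 161158856), the conjugating enzyme of the ubiquitin-like modifier UFM1, had 17729, 19041 and 18642 normalized counts in siQKI, 70908, 67285 and 67820.2 in siRBFOX2 and 65963, 68657 and 67855 in siCtrl libraries (log2 difference -1.89, SE 0.043, adjusted p = 2.86e-11, limma). The siQKI libraries kept 26.9% of the siRBFOX2 level, and siRBFOX2 did not differ from siCtrl at the threshold (log2 difference 0.02, adjusted p = 0.713, limma). G0S2, an inhibitor of the lipase ATGL, was lower in siQKI cells too, at 3146, 3208 and 3022 against 9791, 9283 and 12490.3 normalized counts (log2 difference -1.74, SE 0.093, adjusted p = 1.01e-07, limma). L3HYPDH, a trans-L-3-hydroxyproline dehydratase, and ECHS1, the mitochondrial enoyl-CoA hydratase, followed at -1.48 and -1.13. ART5, an ADP-ribosyltransferase family member, went the other way, with 5873, 4851 and 4692 normalized counts in siQKI, 1395, 1301 and 969 in siRBFOX2 and 798, 792 and 445 in siCtrl libraries (log2 difference 2.08, SE 0.13, adjusted p = 4.03e-07, limma). It was above siCtrl in both knockdowns, by 2.96 and 0.88 on the log2 scale (adjusted p = 2.89e-08 and 0.00338, limma).

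The actin and contractile apparatus was lower in siQKI than in siRBFOX2 cells for more members than it was higher. Of 27 tested contractile and actin-binding genes 10 were lower and 3 higher, with a median difference of -0.08 against 0.005 over all tested genes. More members were below siCtrl than above it in both knockdowns. They were 13 lower and 5 higher in siQKI, and 10 lower and 4 higher in siRBFOX2 cells. CNN2 (GSHG0020971, chromosome 19, 1026584 to 1046151), a calponin that stabilizes actin filaments, had 23283, 21054 and 21975 normalized counts in siQKI and 67702, 71289 and 66298 in siRBFOX2 libraries with no overlap (log2 difference -1.63, SE 0.047, adjusted p = 3e-10, limma). Against siCtrl libraries at 60565, 62276 and 59222, it was lower in siQKI (-1.46, adjusted p = 1.15e-11) and slightly higher in siRBFOX2 cells (0.17, adjusted p = 0.00879, limma). MYLK, the kinase of the myosin light chain, had 26844, 26862 and 24747 against 41714, 39576 and 40136 normalized counts (log2 difference -0.63, SE 0.045, adjusted p = 1.17e-06, limma). TPM4, a tropomyosin, had 47252, 46746 and 47007 against 65099, 70514 and 69573 (log2 difference -0.54, SE 0.041, adjusted p = 1.75e-06, limma), and ZYX, a focal adhesion protein, differed by -0.41. These 3 genes had moved from siCtrl in siQKI cells only. MYH10 (non-muscle myosin IIB, 0.37), VCL (vinculin, 0.21) and TAGLN2 (0.19) were the members higher in siQKI cells, the last of them not without the mean-variance trend (adjusted p = 0.0788).

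Immediate-early genes are the transcription factors and phosphatases that growth factor signaling through ERK induces within minutes, and more of them were lower in siRBFOX2 cells than in siQKI cells. Of 34 tested members 16 were higher in siQKI than in siRBFOX2 cells and 6 were lower, with a median difference of 0.22. FOSB, a subunit of the AP-1 transcription factor, had 24728, 20562 and 20063 normalized counts in siQKI, 4852, 4569 and 3322 in siRBFOX2 and 32258, 24188 and 25310.3 in siCtrl libraries (log2 difference 2.37, SE 0.12, adjusted p = 6.12e-08, limma). Every siRBFOX2 library lay below every siQKI library, and siQKI did not pass against siCtrl (log2 difference -0.32, adjusted p = 0.0728, limma) while siRBFOX2 did (-2.69, adjusted p = 2.77e-09). Its partner FOS, whose interval in the files runs from 75278828 to 75709788 on chromosome 14 and may hold reads of neighboring genes, had 21066, 16429 and 16728 in siQKI and 5428, 4565 and 3276 in siRBFOX2 libraries (log2 difference 2.05, SE 0.14, adjusted p = 1.03e-06, limma).

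EGR1 (GSHG0034747, chromosome 5, 138465479 to 138469500), a zinc finger factor at the top of this response, had 47569.9, 37586 and 39017 normalized counts in siQKI, 18646, 17672 and 13576 in siRBFOX2 and 65757, 57383 and 54753 in siCtrl libraries (log2 difference 1.32, SE 0.11, adjusted p = 2.79e-06, limma). It was also below siCtrl in both knockdowns, at log2 differences of -0.52 in siQKI and -1.84 in siRBFOX2 cells (adjusted p = 0.00138 and 1.85e-08, limma). EGR2 (log2 difference 2.29, SE 0.17, adjusted p = 1.93e-06, limma) and the nuclear receptor NR4A1 (log2 difference 1.94, SE 0.13, adjusted p = 7.67e-07, limma) followed. NR4A2 had 921, 767 and 834 normalized counts in siQKI and 176, 80.4 and 121 in siRBFOX2 libraries (log2 difference 2.80, SE 0.27, adjusted p = 1.06e-05, limma). EGR3, at 25.9 to 266 normalized counts in siRBFOX2 libraries, differed by 2.77 (SE 0.61), and its call was lost without the mean-variance trend (adjusted p = 0.136). Among feedback phosphatases of the ERK pathway, DUSP6 had 42571, 40647 and 38511 against 18639.6, 17876 and 15690.5 normalized counts (log2 difference 1.22, SE 0.062, adjusted p = 6.14e-08, limma). DUSP2 was also higher in siQKI cells (log2 difference 1.47, SE 0.12, adjusted p = 3.88e-06, limma), as were JUNB (0.80), IER2 (0.63) and DUSP1 (0.56).

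A smaller set of the same list went the other way. FOSL1, the AP-1 subunit FRA1, had 278011, 287781 and 276891 normalized counts in siQKI, 360642, 372423 and 386620.0 in siRBFOX2 and 536855, 512327 and 546990.0 in siCtrl libraries (log2 difference -0.41, SE 0.039, adjusted p = 1.16e-05, limma). PHLDA1 (log2 difference -0.57, SE 0.041, adjusted p = 1.16e-06, limma) and DUSP5 (log2 difference -0.39, SE 0.055, adjusted p = 0.000277, limma) went the same way, each lower than siCtrl in both knockdowns and lowest in siQKI cells. ETV5 differed by -0.34 (lost without the mean-variance trend, adjusted p = 0.0861) and ETV1 by -0.56, a call that was lost without siQKI 1 or 2 or siRBFOX2 1 or 3 (adjusted p 0.0916 to 0.114). DUSP7 (-0.34) was not called without siQKI 3 or siRBFOX2 1 or 3 (0.0527 to 0.0792). Against siCtrl, 21 of the 34 members were lower in siQKI (2 higher) and 28 were lower in siRBFOX2 cells (2 higher).

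**Figure D3:**
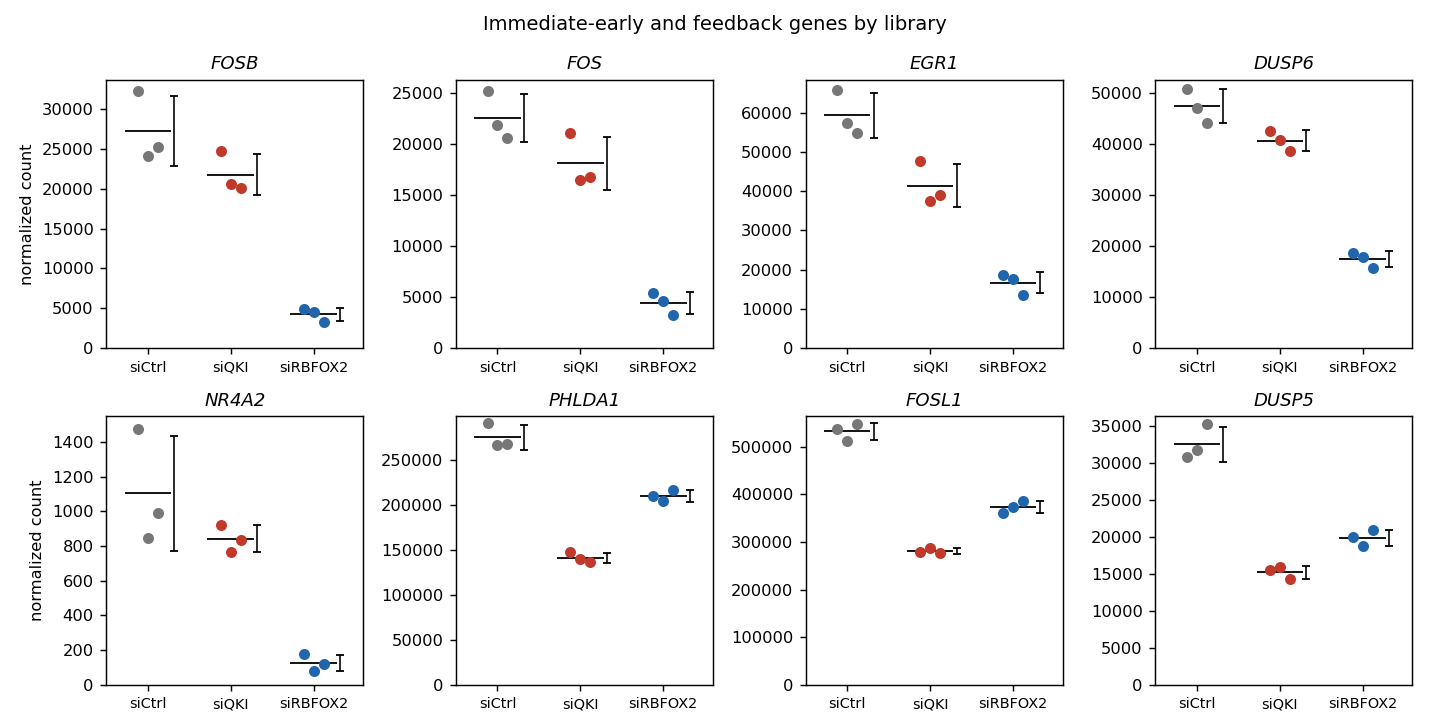
Normalized counts of FOSB, FOS, EGR1, DUSP6, NR4A2, PHLDA1, FOSL1 and DUSP5 by library, with the mean of 3 libraries as a line and the SD as a bar, on axes that start at 0. In the first 5 genes the siRBFOX2 libraries are the lowest, and in PHLDA1, FOSL1 and DUSP5 the siQKI libraries are the lowest.

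The promoters of the inducible genes of this and the next 3 groups are shown, 1 for each group, because each holds a motif known for its group, which many other members lack. They were taken from RefSeq (GRCh38.p14), which lists 27305 promoters of 300 bases around a start site, and both strands were searched. The 250 bases before the start are printed, read on the strand of the gene. In EGR1 the capitals mark CArG boxes, the sites of serum response factor, at -105 to -96 and -83 to -74 from the start site. In IFIT3 they mark the core of the interferon-stimulated response element, a pair of GAAA separated by any 2 bases and here on the opposite strand, at -156 to -147 and -122 to -113. In BIRC3 they mark kappa-B sites at -199 to -190 and -135 to -126, and in TXNRD1 the core TGACNNNGC of the antioxidant response element at -99 to -91. A further TXNRD1 match to this core, on the opposite strand at -8 to 1, runs past the printed bases and is not marked.
EGR1 (chr5:138465229-138465478, plus strand): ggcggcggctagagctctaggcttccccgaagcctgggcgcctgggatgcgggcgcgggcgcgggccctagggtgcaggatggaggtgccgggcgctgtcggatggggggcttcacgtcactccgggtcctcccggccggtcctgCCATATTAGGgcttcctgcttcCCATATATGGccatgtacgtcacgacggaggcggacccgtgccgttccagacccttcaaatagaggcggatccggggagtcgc
IFIT3 (chr10:89327747-89327996, plus strand): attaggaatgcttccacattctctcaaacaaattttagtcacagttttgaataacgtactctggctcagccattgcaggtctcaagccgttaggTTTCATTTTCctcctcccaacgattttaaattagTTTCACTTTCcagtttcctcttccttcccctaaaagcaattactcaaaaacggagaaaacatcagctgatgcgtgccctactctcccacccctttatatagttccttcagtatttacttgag
BIRC3 (chr11:102317234-102317483, plus strand): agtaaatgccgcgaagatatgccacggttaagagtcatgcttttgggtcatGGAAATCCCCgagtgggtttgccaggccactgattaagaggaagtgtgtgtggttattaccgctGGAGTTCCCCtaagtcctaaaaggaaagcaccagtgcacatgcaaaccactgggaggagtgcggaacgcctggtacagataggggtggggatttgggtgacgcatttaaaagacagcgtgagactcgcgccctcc
TXNRD1 (chr12:104215529-104215778, plus strand): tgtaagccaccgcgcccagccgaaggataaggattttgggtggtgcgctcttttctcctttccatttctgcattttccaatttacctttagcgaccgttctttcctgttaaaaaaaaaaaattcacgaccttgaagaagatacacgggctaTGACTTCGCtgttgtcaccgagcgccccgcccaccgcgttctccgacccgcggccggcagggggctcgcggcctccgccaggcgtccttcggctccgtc
The table held promoters for 26 of the 34 immediate-early and feedback genes, and EGR1 was the 1 of them with a CArG box (1.29% of all promoters). The cAMP response element TGACGTCA was found in 3 of the 26 (JUND, DUSP1 and EPHA2, against 1.98% of all promoters). A match says only that these letters lie in this window.

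Interferon-stimulated genes, which cells induce on sensing viral or self RNA, were lower in siQKI than in siRBFOX2 cells wherever they were called. Of 38 tested members 21 were lower and 0 higher (limma), with a median difference of -0.37. IFIT3, an RNA-binding effector, had 3098, 2700.0 and 2225 normalized counts in siQKI, 5675, 5430.3 and 5159 in siRBFOX2 and 4782, 3738 and 4065 in siCtrl libraries (log2 difference -1.03, SE 0.10, adjusted p = 1.48e-05, limma). The groups did not overlap, and IFIT3 lay below siCtrl in siQKI (-0.65, adjusted p = 0.000245) and above it in siRBFOX2 cells (0.38, adjusted p = 0.018, limma). IFIT1 showed the same order at a smaller size, with 5323, 4708 and 4294 against 7099, 6601 and 6959.8 normalized counts (log2 difference -0.53, SE 0.076, adjusted p = 0.00026, limma). IFIT2 was lower at -0.66, and differed from siCtrl in siQKI only (-0.73, adjusted p = 9.71e-06, limma).

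The transcription factors of the pathway were lower as well. IRF1 had 10075, 11595 and 10181 normalized counts in siQKI and 14098, 15568 and 16206 in siRBFOX2 libraries (log2 difference -0.53, SE 0.066, adjusted p = 0.0001, limma), and STAT2 differed by -0.48 (adjusted p = 6.64e-05, limma). ISG15, a ubiquitin-like modifier, did not pass at 0.05 (adjusted p = 0.625, limma). IRF9 differed by -0.31, a call lost without siQKI 1, 2 or 3 or siRBFOX2 2 or 3 (adjusted p 0.0571 to 0.143). USP18 (-0.54), PARP9 (-0.52) and ISG20 (-0.58) were called lower under each alternative tried. MX1, a dynamin-like GTPase, had 567, 454 and 630.1 normalized counts in siQKI, 933, 796 and 1041 in siRBFOX2 and 436, 381 and 455 in siCtrl libraries (log2 difference -0.75, SE 0.16, adjusted p = 0.00489, limma). IFIH1, the RNA sensor MDA5, differed by -0.55, and without the mean-variance trend neither MX1 (adjusted p = 0.0614) nor IFIH1 (adjusted p = 0.0527) passed. OAS1 (-0.74) was not called without siQKI 2 or siRBFOX2 3 (adjusted p = 0.064 and 0.0615), and XAF1 (-0.91) not without siQKI 3 or siRBFOX2 1 or 2 (0.0588 to 0.104). TLR3 stayed at or below 92.6 normalized counts in any library, and its call was lost on leaving out any 1 library other than siQKI 1 (adjusted p 0.0842 to 0.195). Against siCtrl, 2 members were higher and 11 lower in siQKI cells, and 16 were higher and 3 lower in siRBFOX2 cells. The count of members lower in siQKI than in siRBFOX2 was 18 to 23 with any 1 library left out and 11 without the trend. The core of the response element was found in 19 of the 31 members with a listed promoter (3.65% of all promoters), and in 10 of the 18 called lower.

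Genes of antigen presentation on MHC class I, many of them interferon targets, had 6 of 19 tested members lower and 1 higher. TAP1, the peptide transporter, differed by -0.53, NLRC5, the activator of the class, by -0.49, and HLA-E by -0.39. PDIA3, a chaperone of peptide loading, was the higher member at 0.23, and 2 were higher without siRBFOX2 3.

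NF-kB targets and cytokines had the largest share of lower members among the 35 lists of genes described here. Of 33 tested members 21 were lower in siQKI than in siRBFOX2 cells and 2 higher, and the median difference was -0.53. CCL2, a monocyte chemokine, had 8589, 7159 and 6842 normalized counts in siQKI, 18114, 18246 and 17580.0 in siRBFOX2 and 18409, 15834 and 16908 in siCtrl libraries (log2 difference -1.26, SE 0.072, adjusted p = 2.11e-07, limma). Only siQKI cells differed from siCtrl at the threshold (-1.18 against 0.08 on the log2 scale, adjusted p = 1.89e-08 and 0.496, limma). BIRC3, an inhibitor of apoptosis that NF-kB induces, had 11358, 12632 and 12239 in siQKI, 22109.9, 21305 and 24236 in siRBFOX2 and 13525, 13219 and 15045 in siCtrl libraries (log2 difference -0.90, SE 0.058, adjusted p = 5.38e-07, limma). Here the siRBFOX2 libraries had moved most, up by 0.70 from siCtrl (adjusted p = 1.24e-06), with siQKI at -0.21 (adjusted p = 0.0178, limma).

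Subunits of the factor itself followed the same direction. RELB had 4575, 5373 and 4859 against 8314, 7615 and 8195 normalized counts (log2 difference -0.71, SE 0.068, adjusted p = 1.26e-05, limma), and NFKB2, its partner in the non-canonical pathway, 20237, 20672 and 20117 against 31623, 30759 and 33274 (log2 difference -0.65, SE 0.043, adjusted p = 7.31e-07, limma). NFKB1 (-0.35), RELA (-0.23) and the inhibitor NFKBIA (-0.40) were lower too, each without overlap of the libraries. TNFAIP3, the feedback inhibitor A20, differed by -0.57 and IL18 by -0.69. Among chemokines for the receptor CXCR2 in this list CXCL1, CXCL2, CXCL3 and CXCL8 were lower, and CXCL5 (2.78, adjusted p = 0.171) and CXCL6 (-0.77, adjusted p = 0.535, both limma) did not pass. CXCL8 had 2018, 1799 and 2178 in siQKI, 2550.1, 2986 and 3326 in siRBFOX2 and 5496, 4973 and 5991 in siCtrl libraries (log2 difference -0.56, SE 0.11, adjusted p = 0.00211, limma), and CXCL1 differed by -0.46, both calls being lost without the mean-variance trend (adjusted p = 0.0684 and 0.0606). CXCL2 (-0.53) was not called without siQKI 1 or 3 or siRBFOX2 3 (adjusted p 0.0513 to 0.0744), and CXCL3 (-0.70) not without siQKI 3 or siRBFOX2 1 or 3 (0.0517 to 0.0832). CSF2 (-1.91) was not called without siQKI 1 or 2 or siRBFOX2 2 (0.0581 to 0.127). Of the 2 higher members, 1 was left without siQKI 1 or siRBFOX2 1. IL11, a cytokine of the IL-6 family, was higher, with 1960.2, 1907 and 1933 normalized counts in siQKI and 881, 834 and 869.7 in siRBFOX2 libraries (log2 difference 1.17, SE 0.097, adjusted p = 3.71e-06, limma). Against siCtrl, 4 members were higher and 14 lower in siQKI, and 9 higher and 7 lower in siRBFOX2 cells. The count of lower members was 18 to 20 with any 1 library left out and 9 without the trend. A kappa-B site was found in 13 of the 24 members with a listed promoter (10.8% of all promoters), and in 8 of the 13 called lower. The summed immune markers, nearly all CD68, were lower in siQKI libraries too (39033.1 to 39879.5 against 43658.2 to 45632.1 normalized counts, with CD3E and MS4A1 at 0). PTPRC was at 0 in the siQKI libraries and at 0, 20.3 and 4.63 in the siRBFOX2 libraries. TYROBP was at 0 in each knockdown library except siRBFOX2 1 (19.98). ITGAM had 488.1, 400.3 and 500.1 in siQKI and 694.1, 724.4 and 716.9 in siRBFOX2 libraries. All these libraries came from the PANC-1 line, and the part of the immune markers in this and the interferon list was not tested.

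Target genes of NRF2, the factor that answers oxidative stress, were lower in siQKI than in siRBFOX2 cells wherever they were called. Of 25 tested members 14 were lower in siQKI than in siRBFOX2 cells and 0 were higher (limma), with a median difference of -0.19. HMOX1 (GSHG0028588, chromosome 22, 35380437 to 35394207), which degrades heme, had 30164, 34609 and 33769.7 normalized counts in siQKI, 66701, 59774 and 75253 in siRBFOX2 and 33466, 37213 and 41455 in siCtrl libraries (log2 difference -1.03, SE 0.073, adjusted p = 1.12e-06, limma). It had moved from siCtrl in siRBFOX2 only (0.85, adjusted p = 3.08e-06, against -0.18, adjusted p = 0.107, in siQKI, limma). TXNRD1, the cytosolic thioredoxin reductase, had 154630.0, 174624 and 163894 in siQKI, 281522, 289338 and 310201 in siRBFOX2 and 208387, 215319 and 232652 in siCtrl libraries (log2 difference -0.84, SE 0.05, adjusted p = 2.85e-07, limma), and lay on opposite sides of siCtrl (-0.41 and 0.43, adjusted p = 2.31e-05 and 3.06e-05, limma).

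SRXN1, a sulfiredoxin, differed by -0.65 and GCLM, the modifier subunit of the first enzyme of glutathione synthesis, by -0.50, each without overlap (adjusted p = 6.47e-05 and 0.00014, limma). ME1 (-0.57) was also lower. SLC7A11, the cystine transporter, had 1754, 2347 and 2534 against 3005, 3428 and 3372 normalized counts (log2 difference -0.58, SE 0.12, adjusted p = 0.00371, limma), and its call and those of GCLC (-0.35) and the ferritin chain FTH1 (-0.36) were lost without the mean-variance trend (adjusted p 0.0599 to 0.0982). FTL, GSR, NQO1, PRDX1 and TALDO1 differed by -0.18, -0.19, -0.15, -0.18 and -0.17, and each of these calls was lost on leaving out at least 3 of the 6 libraries in turn (adjusted p up to 0.173). The list's count of lower members fell to 8 without siRBFOX2 1 and to 9 without siRBFOX2 3, and was 6 without the trend. AKR1C3 was listed at 0 in all siQKI libraries and had 91.5, 52.3 and 30.6 normalized counts in siRBFOX2 libraries, and its call was lost without siRBFOX2 1 (adjusted p = 0.0699). The mRNA of NFE2L2, which encodes NRF2, differed by 0.02 (adjusted p = 0.806) and that of its inhibitor KEAP1 by 0.08 (adjusted p = 0.275, both limma), neither past the threshold. Against siCtrl, 5 members were higher and 5 lower in siQKI, and 15 higher and 0 lower in siRBFOX2 cells. The core TGACNNNGC was found in 4 of 17 promoters (13.6% of all promoters), and in 3 of the 9 called lower.

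**Figure D4:**
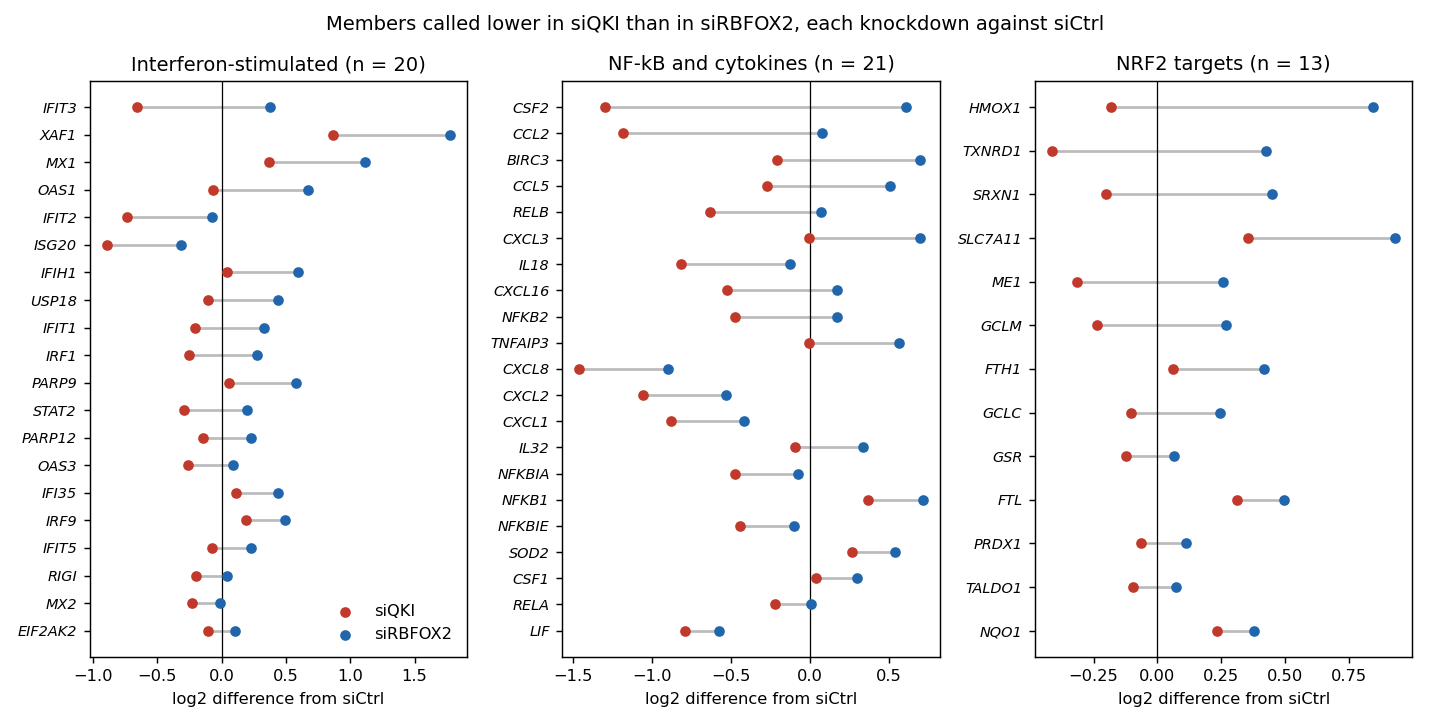
For the members called lower in siQKI than in siRBFOX2 whose mean reached 50 normalized counts, the log2 difference from siCtrl is plotted for siQKI (red) and siRBFOX2 (blue), in order of the gap between them. The panels hold 20 interferon-stimulated genes, 21 NF-kB targets and cytokines and 13 NRF2 targets, and since members were drawn because they were called, every red point lies left of its blue point.

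Of 30 tested genes of the unfolded protein and integrated stress response 10 were lower and 5 higher in siQKI cells. PSAT1, an enzyme of serine synthesis, had 16140.2, 16660.5 and 16482 normalized counts in siQKI, 34519, 31168 and 35257 in siRBFOX2 and 21324, 25952 and 24319 in siCtrl libraries (log2 difference -1.03, SE 0.05, adjusted p = 5.23e-08, limma). It lay below siCtrl in siQKI (-0.53, adjusted p = 1.17e-05) and above it in siRBFOX2 cells (0.50, adjusted p = 4.01e-05, limma). PHGDH (-0.54), SHMT2 (-0.54), SESN2 (-0.62), TRIB3 (-0.51), CHAC1 (-0.49) and ASNS (-0.36) were lower as well. HSP90B1, the chaperone GRP94, had 314128, 323694 and 315378 against 225485, 229159 and 239528 normalized counts (log2 difference 0.46, SE 0.038, adjusted p = 3.61e-06, limma), and EDEM1, which sends misfolded proteins to degradation, was higher at 0.69 (adjusted p = 1.39e-05, limma). HSPA5, the chaperone BiP, differed by 0.20, a call that was lost without siQKI 2 or 3 or siRBFOX2 1 or 2 (adjusted p 0.0721 to 0.115).

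Lysosome and autophagy genes were lower in siQKI cells for 8 of 33 tested members and higher for 1, ATG9A (0.14), whose call was lost on leaving out any 1 library (adjusted p 0.0639 to 0.165). In all 27.3% of the list were called, against 20.5% of all tested genes. GABARAPL1, an ATG8 protein, had 13395, 13217 and 12260.0 normalized counts in siQKI, 20363, 20367 and 20264 in siRBFOX2 and 11516, 10301 and 10751 in siCtrl libraries (log2 difference -0.65, SE 0.047, adjusted p = 1.3e-06, limma). MITF (-0.59) and TFE3 (-0.46), transcription factors of lysosomal genes, differed from siCtrl in siQKI cells only, and SQSTM1 (p62) was lower at -0.43. Metallothioneins, which bind zinc and copper, went the other way in 4 of 9 tested members, with 0 lower (limma). MT1E had 89516, 78451 and 80479.8 normalized counts in siQKI and 48461, 40123 and 48255 in siRBFOX2 libraries (log2 difference 0.86, SE 0.07, adjusted p = 2.79e-06, limma), whereas MT2A, the main member by count, did not pass at 0.12 (adjusted p = 0.295, limma). The count of higher metallothioneins was 2 without siQKI 1 or siRBFOX2 2, and their near-identical sequences make the split between members uncertain.

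**Figure D5:**
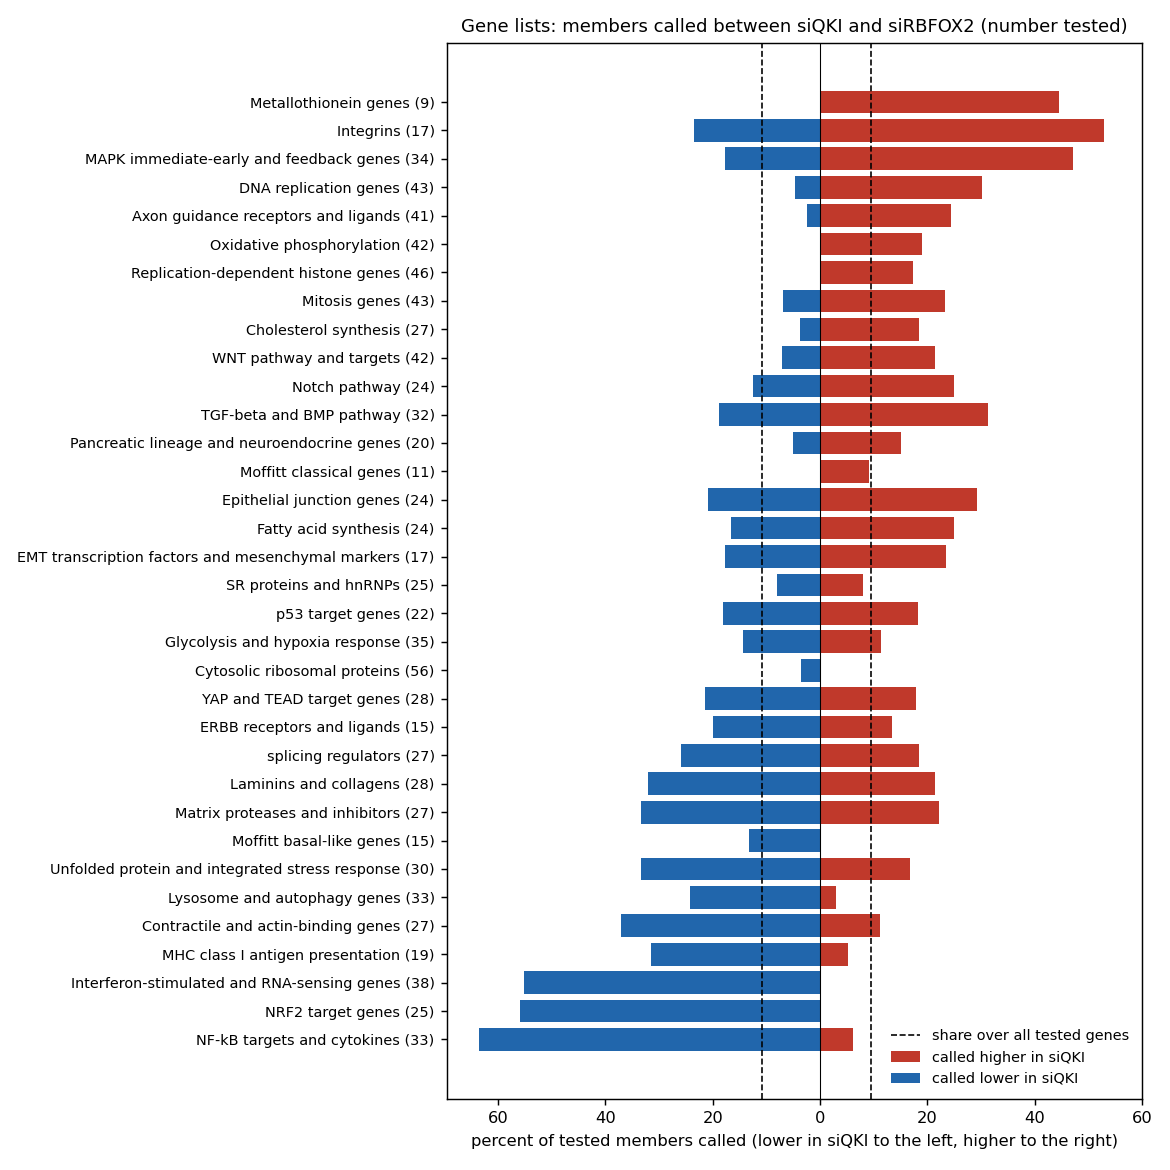
For each gene list, with the number of tested members in parentheses, bars give the percent of members called higher (red, right) and lower (blue, left) in siQKI than in siRBFOX2 cells. Dashed lines mark the shares over all tested genes, 9.55% higher and 10.9% lower. Interferon-stimulated genes, NRF2 targets and NF-kB targets extend furthest to the left, and integrins and immediate-early genes furthest to the right.

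Cell surface receptors for the matrix were mostly higher in siQKI than in siRBFOX2 cells, but not mostly above siCtrl. Of 17 tested integrins 9 were higher and 4 lower, with a median difference of 0.25. Over 18 alternatives, stricter thresholds included, 3 to 10 were higher and 1 to 4 lower. Relative to siCtrl 4 were higher and 5 lower in siQKI, and 1 was higher and 5 lower in siRBFOX2 cells. ITGB8, which activates latent TGF-beta, had 926, 1028 and 873 normalized counts in siQKI, 368, 379.6 and 383 in siRBFOX2 and 457, 249.9 and 220.3 in siCtrl libraries (log2 difference 1.32, SE 0.14, adjusted p = 3.37e-05, limma), from a rise in siQKI cells (1.68 against siCtrl, adjusted p = 3.77e-05, limma). ITGA2, a collagen receptor subunit, had 25188, 28162 and 28335 in siQKI, 16447, 17467 and 17071 in siRBFOX2 and 49488, 48989 and 56320.2 in siCtrl libraries (log2 difference 0.68, SE 0.052, adjusted p = 2.09e-06, limma), so that it was below siCtrl in both and lowest with RBFOX2. ITGAV (0.34) and ITGB5 (0.33), which pair with each other, were both higher, and ITGA3 (-0.23) was lower. ITGB1, the common beta subunit, was lower at -0.24 and ITGB4 higher at 0.55, both not without the mean-variance trend (adjusted p = 0.0567 and 0.0915). ITGB6, at 176 or fewer normalized counts in any of the 6 libraries, was lower at -2.46 (SE 0.50).

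Matrix genes split in both directions. Of 28 tested laminins and collagens 6 were higher and 9 lower, or 8 each after upper-quartile rescaling. COL5A1 had 33639.7, 34367 and 35411 normalized counts in siQKI and 25522, 25251 and 25694 in siRBFOX2 libraries (log2 difference 0.44, SE 0.04, adjusted p = 8.27e-06, limma), and COL12A1 was higher at 0.37, whereas the laminin chain LAMA4 (-0.51) was lower. Of 27 tested matrix proteases and inhibitors 6 were higher and 9 lower, and the latter count fell to 3 without siQKI 3 and to 5 without siRBFOX2 2. MMP1, the interstitial collagenase, had 202, 231 and 289 against 496, 409 and 541 normalized counts (log2 difference -1.005, SE 0.21, adjusted p = 0.00439, limma), and the inhibitor TIMP2 was higher at 0.42 (adjusted p = 8.64e-05, limma).

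Genes of epithelial and mesenchymal state moved in both directions. CDH1, the epithelial cadherin, had 3026, 2275 and 2528 normalized counts in siQKI, 1438, 1535 and 1322 in siRBFOX2 and 995, 997 and 968 in siCtrl libraries (log2 difference 0.86, SE 0.11, adjusted p = 0.000119, limma). It was above siCtrl in both knockdowns and highest in siQKI cells (1.39 and 0.53, adjusted p = 1.65e-07 and 0.00182, limma). OCLN, a tight junction protein, was higher at 0.28, while CLDN1 (-0.53) and TJP1 (-0.31) were lower. In all, 7 of 24 tested junction genes were higher and 5 lower, and without the mean-variance trend more were lower than higher. Among 17 tested EMT factors and mesenchymal markers 4 were higher and 3 lower, with a median difference of -0.002, and the order of the counts turned without siQKI 2. AXL, a receptor kinase of the mesenchymal state, had 56938, 60896 and 58064 against 92750.1, 90857 and 93923 normalized counts (log2 difference -0.66, SE 0.039, adjusted p = 2.7e-07, limma), and ZEB1 was lower at -0.29 (lost without the trend, adjusted p = 0.0759). The higher members included the EMT factor SNAI1, at 0.31 to 0.37 over the alternatives, a call lost without siQKI 2 (adjusted p = 0.0675, limma). TWIST2 (0.58) and TGFBI (0.20) were higher too, both lost without the trend (adjusted p = 0.112 and 0.0922, limma). Of 15 tested basal-like genes of PDAC 2 were lower (4 without siRBFOX2 2), KRT15 (-0.54) and DHRS9 (-1.55, lost without the trend, adjusted p = 0.0594), and of 11 tested classical genes 1 was higher, AGR2 (0.41).

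Axon guidance genes, which also steer the migration of tumor cells, were higher in siQKI cells in 10 of 41 tested members and lower in 1. In all 26.8% of the list were called, against 20.5% of all tested genes and 39.1% of those at a mean of 5000 or more. NRP2, a co-receptor of semaphorins and VEGF, had 5984, 5946 and 5583 normalized counts in siQKI, 3025, 3086 and 3261 in siRBFOX2 and 3437, 3290.2 and 3314 in siCtrl libraries (log2 difference 0.90, SE 0.064, adjusted p = 1.17e-06, limma). NTN1, the ligand netrin-1, had 5265, 4291 and 4464 against 2710.0, 2189 and 2189 (log2 difference 0.99, SE 0.10, adjusted p = 1.94e-05, limma) and lay on opposite sides of siCtrl (0.58 and -0.41, adjusted p = 0.000401 and 0.00792, limma). PLXND1 (0.56) and EPHB4 (0.32) were also higher. SEMA3A was the lower member at -0.30 and was lost without the trend (adjusted p = 0.0623), and 2 members were lower without siQKI 3 or siRBFOX2 2 or 3. Against siCtrl, 25 members were higher and 6 lower in siQKI, and 11 higher and 5 lower in siRBFOX2 cells.

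In the TGF-beta and BMP pathway 10 of 32 tested members were higher and 6 lower. The ID genes, direct BMP targets that inhibit differentiation, were higher together. ID1 had 213094, 198153 and 198729 normalized counts in siQKI and 141283, 124327 and 142047 in siRBFOX2 libraries (log2 difference 0.58, SE 0.053, adjusted p = 7.22e-06, limma), ID2 had 6027, 6112 and 6056 against 3775, 3485 and 3617 (log2 difference 0.74, SE 0.06, adjusted p = 3.11e-06, limma), and ID3 had 24634, 24061 and 20404 against 15145, 12755 and 14084 (log2 difference 0.72, SE 0.075, adjusted p = 2.34e-05, limma). None of the 3 genes overlapped between the groups. The receptor TGFBR1 (0.33) was higher, and the ligands TGFB3 (-1.02) and INHBA (-0.67) were lower, the latter not without the trend (adjusted p = 0.0566).

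WNT genes were higher in 9 of 42 tested members and lower in 3, so that 28.6% were called against 20.5% of all tested genes. The ligand WNT10A had 2085, 2009 and 1505 against 908, 988 and 785 normalized counts (log2 difference 1.05, SE 0.14, adjusted p = 0.000138, limma), and ROR1, a receptor of the non-canonical pathway, 2171, 2253 and 1992 against 4355, 4519 and 4641 (log2 difference -1.08, SE 0.074, adjusted p = 8.7e-07, limma). In the Notch pathway 6 of 24 tested members were higher and 3 lower. LFNG, a glycosyltransferase that modifies Notch, had 3599, 3503 and 3225 in siQKI and 1944, 1622 and 1727 in siRBFOX2 libraries (log2 difference 0.97, SE 0.088, adjusted p = 8.22e-06, limma). The Notch targets HES1 (0.70) and NRARP (0.61) were higher too. The receptor NOTCH4 (-0.66), the target HEYL (-0.51) and the co-activator MAML1 (-0.22) were lower, all 3 not without the mean-variance trend (adjusted p 0.0503 to 0.193) and HEYL also not without siQKI 2 or 3 or siRBFOX2 1 or 2 (0.0501 to 0.15).

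Targets of YAP and TEAD did not share a direction, with 5 of 28 tested members higher and 6 lower, and 8 were higher after upper-quartile rescaling but 3 without siQKI 1 or 2. The co-activators themselves parted. YAP1 had 79828, 81704 and 80187 normalized counts in siQKI and 62318, 62444 and 61607 in siRBFOX2 libraries (log2 difference 0.38, SE 0.035, adjusted p = 1.02e-05, limma), and WWTR1, which encodes TAZ, 16039, 15785 and 15948 against 28698, 29533 and 27854 with siCtrl at 40795, 39313 and 42135 (log2 difference -0.85, SE 0.042, adjusted p = 5.87e-08, limma). IGFBP3 was lower in siQKI cells, at 2449, 2700.0 and 1459 against 6502, 5365 and 5500.0 (log2 difference -1.44, SE 0.17, adjusted p = 7.57e-05, limma), from a rise in siRBFOX2 cells over siCtrl (1.81, adjusted p = 2.33e-06, limma). ANKRD1 was lower at -0.77. Of 15 tested ERBB receptors and ligands 2 were higher and 3 lower, or 4 and 2 after upper-quartile rescaling, with 1 higher without siQKI 1, and ERBB3 differed most at 0.85 (adjusted p = 0.00268, limma).

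Among cell cycle genes most members were not called. Of 43 tested DNA replication genes 13 were higher and 2 lower, and of 43 tested mitosis genes 10 were higher and 3 lower, with 4 and 2 higher without the mean-variance trend. Of the 2 lower replication genes 1 was left on leaving out any library, and 6 mitosis genes were lower without siRBFOX2 2. MCM7, a subunit of the replicative helicase, had 111027, 113021 and 111171 normalized counts in siQKI and 91869.9, 88729.5 and 94269 in siRBFOX2 libraries (log2 difference 0.29, SE 0.037, adjusted p = 0.000131, limma). KIF11, the spindle motor Eg5, had 18469.9, 19308 and 19598 against 14878, 14019.9 and 15248 (log2 difference 0.38, SE 0.048, adjusted p = 0.000112, limma), and CCNE2 was higher at 0.36. BIRC5 (survivin) was lower, with 107792, 96329 and 99110.3 against 128287, 131125 and 132170.0 (log2 difference -0.37, SE 0.044, adjusted p = 6.9e-05, limma). Against siCtrl, 23 replication genes were lower in siQKI and 30 in siRBFOX2 cells (2 higher in each), and 26 and 38 mitosis genes were lower (0 higher in each, limma). Replication-dependent histone genes, whose mRNAs largely lack a polyA tail, were higher in 8 of 46 tested members and lower in 0 (limma), a count of 5 without siQKI 1, siQKI 3 or siRBFOX2 3, with H2BC11 (0.74) and H2BC5 (0.64) among them. Their near-identical copies make single members uncertain.

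Of 42 tested genes of oxidative phosphorylation 8 were higher and 0 lower (limma), with 16 higher after upper-quartile rescaling, 1 higher without the trend and 2 lower without siRBFOX2 2, and SDHA, a subunit of succinate dehydrogenase, had 47253, 45997 and 47476 against 38317, 37920.4 and 38777 normalized counts (log2 difference 0.29, SE 0.038, adjusted p = 0.000121, limma). Of 27 tested cholesterol synthesis genes 5 were higher and 1 lower (median difference -0.02), with HMGCS1 at 0.43 and INSIG1 at -0.47, and 3 were higher without siQKI 2 or siRBFOX2 1 and 2 lower without siQKI 1 or siRBFOX2 2. The share called, 22.2%, was near the 20.5% of all tested genes. Of 24 tested fatty acid synthesis genes 6 were higher and 4 lower, the former count falling to 1 without siQKI 1 and to 3 without siQKI 2, siQKI 3 or siRBFOX2 3. Of 35 tested glycolysis and hypoxia genes 4 were higher, among them SLC16A3 (0.52), and 5 were lower, which became 6 and 4 after upper-quartile rescaling. Of 22 tested p53 targets 4 were higher and 4 lower, with 2 higher without siQKI 2. CDKN1A (p21) was higher at 0.39 and the death receptor TNFRSF10B lower at -1.02. Of 56 tested cytosolic ribosomal proteins 0 were higher and 2 lower (limma), and the latter count was 9 without siRBFOX2 2 and 1 without any other library. Of 20 tested lineage and neuroendocrine genes 3 were higher, with ONECUT3 at 0.54, and 1 lower, which was lost without siQKI 3 or siRBFOX2 1 or 2.

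Some genes lay on opposite sides of the control. Genes above siCtrl in siQKI and below it in siRBFOX2 cells included IGFBPL1, an IGF-binding-protein-like secreted protein, with 3187, 3009 and 2613 normalized counts in siQKI, 989, 1005 and 979 in siRBFOX2 and 1678, 1795 and 1865 in siCtrl libraries (log2 difference 1.56, SE 0.097, adjusted p = 4.32e-07, limma). CCDC96 (0.93), AMH (1.02) and IER5L (1.01) followed. Those with the reverse order included COL24A1, at 123, 106 and 91.2 against 364, 333 and 475 (log2 difference -1.86, SE 0.26, adjusted p = 0.000251, limma), and IL15 (-1.17), CPS1 (-1.06) and FILIP1L (-1.11). SGPL1, the lyase that ends sphingosine-1-phosphate, had 5785, 6077 and 6161 normalized counts in siQKI, 12351, 12511 and 12687 in siRBFOX2 and 8599, 9227 and 8409 in siCtrl libraries (log2 difference -1.06, SE 0.051, adjusted p = 4.52e-08, limma). These genes were called in the direct comparison under each alternative tried, which does not show that each stayed on opposite sides of siCtrl. That is not given gene by gene, and the class of 219 genes fell to 126 to 139 with any 1 siCtrl library left out.

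The largest log2 differences belonged to genes of low count. MGP, matrix Gla protein, had 111, 105 and 123 normalized counts in the siQKI libraries and was listed at 0 in all siRBFOX2 libraries, with 34.5, 23 and 54.3 in siCtrl. KLK6 had 60.4, 160.5 and 77.6 in siQKI and 0, 0 and 1.85 in siRBFOX2 libraries. FOXJ1, the master factor of motile cilia, had 324, 234 and 423 in siQKI, 82, 41.6 and 10.2 in siRBFOX2 and 679, 444 and 435 in siCtrl libraries, and was not called without the mean-variance trend (adjusted p = 0.0782). In the other direction IL2RG, the common gamma chain of cytokine receptors, had 0, 22.7 and 7.34 in siQKI and 317, 158 and 254 in siRBFOX2 libraries, and it also missed the threshold without the trend (adjusted p = 0.0687). CD300C had 4.56, 2.62 and 11.5 against 127, 46.5 and 123, and was called under each alternative. Other genes of this ranking are not described. Their calls held under 6 of 16 alternatives for NXF3, 10 for IL21R, APOD and TNFRSF10C, 11 for GAS1 and 12 for TP63. They held under 14 for CLEC11A, OGFR-AS1 and ACSL6 and under 15 for SSTR5, SRMS, MIR3192 and NPHS1. The ranking admitted only genes whose libraries did not overlap between the groups, as was so for 35.0% of the tested genes, so this trait is no result. At such low counts the size of the difference depends on the pseudocount.

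Gene totals were last set beside the genes in which the study lists splicing events of either factor in these cells, a choice made on the same libraries and so no independent evidence of a direction. Of 374 genes with a QKI event only 56 were higher and 97 lower in siQKI than in siRBFOX2 cells. Of 223 genes with an RBFOX2 event only 43 were higher and 41 lower, and of 125 genes with events of both 28 were higher and 33 lower (34 and 30 after upper-quartile rescaling). In all 40.9%, 37.7% and 48.8% of these lists were called, in the same order. The share was 20.5% over all tested genes and 39.1% at a mean of 5000 or more, and whether level accounts for the counts was not tested. Of the 19 genes that the study followed by RT-PCR 4 were higher and 6 lower. ADAM15, a disintegrin metalloprotease, had 10005, 9738 and 10857 normalized counts in siQKI and 14713, 13155 and 15176 in siRBFOX2 libraries (log2 difference -0.49, SE 0.062, adjusted p = 0.00011, limma). ADD3, an actin-capping adducin, had 6653, 5821 and 5781 against 4339, 4649 and 4218 (log2 difference 0.47, SE 0.071, adjusted p = 0.000434, limma). TJP1 (-0.31), CLSTN1 (0.25) and PLOD2 (0.27) also kept their calls under each alternative. CTNND1 (-0.17), SYTL2 (-0.21) and ESYT2 (0.16) were not called without the trend (adjusted p 0.0816 to 0.0972), RAI14 (-0.28) not without siQKI 1 or 2 (0.0684 and 0.0805), and LRRFIP2 (-0.15) not without siQKI 1, 2 or 3 or siRBFOX2 2 or 3 (0.0559 to 0.151). SEC16A, EXOC1, NFYA, DST, SPAG9, SEC31A, KIF13A, AFDN and MYO18A were not called. Totals carry no information on exon inclusion.

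The binding letters in 3′UTRs were then counted for all genes with a match in the annotation, 14103 genes that are 81.3% of the tested genes with a symbol. ACTAAC was found in 18.3% of these 3′UTRs, in 18.5% of the genes higher and 19.7% of those lower in siQKI cells. Per kilobase the density was 0.125 over all genes, 0.122 in the higher and 0.130 in the lower group. TGCATG was found in 35.7% of all 3′UTRs, in 39.1% of the higher and 36.5% of the lower genes, at densities of 0.315, 0.334 and 0.299 per kilobase. The 3′UTRs of the higher and lower genes were longer than those of all genes, with medians of 1357 and 1491 against 1270 bases, which raises the share with any motif. The genes that had moved from siCtrl in siQKI only held ACTAAC in 16.4% of the higher and 19.5% of the lower members, and those that had moved in siRBFOX2 only held TGCATG in 37.1% and 37.3%. The motif of the other factor was no rarer in most of these groups. ACTAAC was found in 19.4% of the higher and 23.5% of the lower siRBFOX2-only genes, and TGCATG in 38.0% and 34.5% of the siQKI-only genes.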

How the data were processed

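Polyadenylated RNA of PANC-1 cells was sequenced from paired ends in 3 libraries each of siQKI, siRBFOX2 and siCtrl cells. The submitters' processing notes name FastQC, Picard, SAMtools, STAR 2.7.5a, DESeq2 and build hg38, and genes were annotated with FAST DB. The deposited values are a signal per gene, counts divided by DESeq2 size factors by the authors, and were whole multiples of a library's step within 0.01. HPAF-II libraries were not used, and the authors' own gene-level comparisons were not read. From their splicing comparisons only the identity of the genes with an event was taken. Genes whose mean reached 10 were tested with limma 3.58.1 (R 4.3.3) on log2(value + 1) with a mean-variance trend and Benjamini-Hochberg adjustment, siQKI against siRBFOX2 over 6 libraries and each against siCtrl over 9. edgeR 4.0.16 on the recovered steps, for which 100% of values came out whole, called 4489 genes (2117 higher, 2372 lower). The rule selected for naming the targets, the 12 largest differences in each direction (mean of at least 50, libraries not overlapping), up to 3 called members of each list in each direction, the RT-PCR genes and 6 genes in each direction on opposite sides of siCtrl. Not all of the selected genes are described. The members and lists were chosen with earlier results of these data known. The direct comparison was tried on simulated data in which the noise depended on a gene's level only. That setting favors the mean-variance trend, so it cannot show how far the calls depend on the trend. Tables and figures were made with Python 3.11.15, numpy 2.4.6, pandas 2.3.3 and matplotlib 3.10.9.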

Additional observations from a re-analysis of the deposited data

How the results depend on the processing

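The 4640 calls of the direct comparison (2165 higher, 2475 lower) numbered 3564 to 4476 with any 1 knockdown library left out, 1640 to 2105 of them higher and 1884 to 2371 lower. Without limma's mean-variance trend 1897 genes passed (843 higher, 1054 lower), at an adjusted p under 0.01 there were 2808 (1295 and 1513), and with a fold of at least 1.5 as well 964 (474 and 490). Genes moved from siCtrl in siQKI only numbered 926 without the trend, 413 with the fold and 1413 to 1979 with any 1 library left out, and those moved in siRBFOX2 only 405 without the trend, 593 at 0.01, 175 with the fold and 735 to 939 with any 1 library left out. Genes on opposite sides of siCtrl numbered 100, 81, 76 and 126 to 214, and genes moved together 276, 465, 115 and 715 to 966, in the same order. The causes were not tested. Upper-quartile rescaling, which moved the median of all tested genes to 0.036, called 2651 genes higher and 2094 lower and kept 91.8% of the calls, and edgeR, an alternative chosen after seeing the data, kept 95.6%. The difference stayed within -2.54 to -2.42 for QKI and 2.47 to 2.71 for RBFOX2. Of 5005 values of the named genes other than QKI and RBFOX2, under 16 alternatives each or 15 for 3 of them, 4588 kept their call and direction and 411 lost the call, 140 of these without the trend, while 1 was newly called (SEC16A, -0.147 without siRBFOX2 3). The 5 values that turned in sign belonged to 3 genes not called, which with any 1 library left out ranged from -0.1716 to 0.0437 for DST (above 0 without siQKI 1 or siRBFOX2 2), from -0.03009 to 0.03283 for KIF13A (below 0 without siQKI 2 or siRBFOX2 3) and from -0.005706 to 0.04226 for NFE2L2 (below 0 without siQKI 3). With the replicate number as a block 4635 genes were called (2185 higher, 2450 lower), and same-numbered libraries did not deviate together (r of -0.0277 to 0.0202 across genes), so that the numbers are not read as pairs. Precision falls at low levels, where the median SE was 1.0 on the log2 scale at a mean of 10 to 50 normalized counts against 0.052 at 5000 or more.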
